A study of Mus musculus with 12 samples.

Results

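Complement and the clotting cascade are neighbouring systems of plasma proteases, most of them made by hepatocytes. The comparison covered a list of 39 of their genes in mouse liver. A gene was read through its probe sets annotated to it alone, and where a gene had several, the one with the highest mean over the arrays was to be used. Of the 39 genes, 34 had such a probe set, 1 each, 19 of complement and 15 of coagulation, out of 22180 genes read in that way. All 34 lay above the filter on dim genes and were among the 14031 genes tested. C3, Cfd, Cpb2, Masp2 and Klkb1 were not analysed here. The probe sets of Masp2 and Klkb1 also name a neighbouring gene.

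Complement is started by C1 on antibodies, by lectins on sugars or by the alternative loop of factors B, D and properdin, and each route activates C3. The terminal components C5 to C9 then assemble a pore in the target membrane. Clotting runs through vitamin K-dependent proteases to thrombin and fibrin, is braked by activated protein C with its cofactor protein S, and is dissolved by plasmin. Several of these genes are also acute phase genes, which the liver raises in inflammation.

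The livers came from male mice on a C57BL/6 background, 8 to 10 weeks old at the start. They were wild-type or Pparβ/δ-/-, that is, they lacked the nuclear receptor PPARβ/δ in the whole animal, and for 16 weeks, after a week of acclimation, their liquid food held either no ethanol (control) or 4% (v/v) ethanol. Each of the 4 groups had 3 Affymetrix arrays, called wild-type or null and control or ethanol below, and the small number of arrays limits all values in precision. The labels give 10 mice for each feeding group but do not say that each array is 1 mouse, so every error and p-value rests on the spread among these samples, which may be technical. The comparisons asked how ethanol and loss of the receptor, alone and together, changed liver transcripts.

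Values are log2 intensities, and a change is a difference of group means on that scale with its standard error from limma. The threshold for a call was 0.05 for the p-value after Benjamini-Hochberg adjustment over all genes tested. Array medians lay between 5.55 and 5.62, the filter on dim genes between 5.61 and 5.71, and arrays correlated at 0.976 or more. Ppard itself had means of 7.78, 7.86, 7.84 and 7.96 (wild-type on control diet and on ethanol, then null on control diet and on ethanol), a genotype change of 0.08 ± 0.08 (limma adjusted p = 0.621). No source used here says whether its probes lie in the disrupted stretch, and its level therefore checks no label. Levels of different genes were not compared, because probe sets differ in response.

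In null livers 4 members were lower and 1 was higher than in wild-type livers, averaged over the diets. Protein S (Pros1), the terminal components C6 and C9, and properdin (Cfp) fell by 1.34-fold to 1.54-fold, and the C1r-like protease gene C1rl rose 1.24-fold. The other 29 did not pass, among them every measured vitamin K-dependent procoagulant protease, the fibrinogen chains and plasminogen. The 5 calls were 14.7% of the members, where 7% of all genes tested were called (3.01% higher and 3.98% lower). The median change of the 34 was -0.08, with 22 negative, against a median of -0.00047 over all genes.

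**Figure D1:**
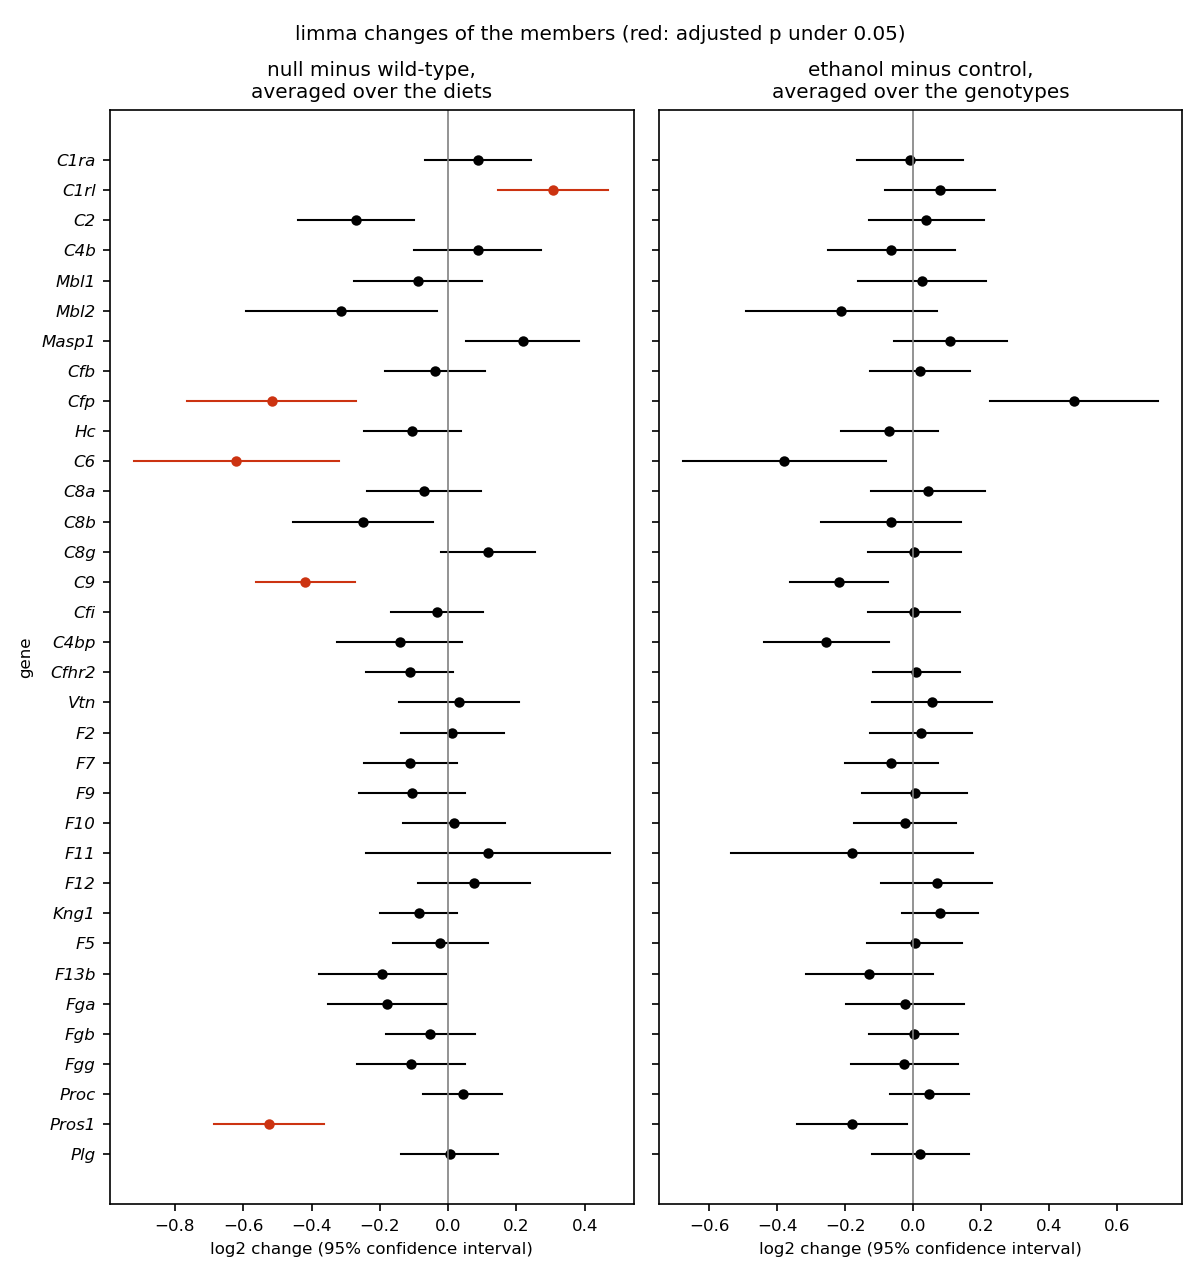
Change of each of the 34 measured members in log2 units, null minus wild-type averaged over the diets on the left and ethanol minus control averaged over the genotypes on the right, with points for the limma estimate and lines for its 95% confidence interval. C1rl, Cfp, C6, C9 and Pros1 (red) were called by genotype, and no member was called by ethanol.

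Protein S is the plasma cofactor with which activated protein C cuts factors V and VIII, and in human plasma it also binds the complement inhibitor C4BP. The log2 intensities of Pros1 (Entrez 19128) in wild-type livers were 10.11, 9.79 and 10.12 on control diet and 9.71, 9.56 and 9.83 with ethanol. Null livers gave 9.35, 9.41 and 9.30 on control diet and 9.35, 9.25 and 9.30 with ethanol. All 6 null arrays thus lay below all 6 wild-type arrays. Pros1 fell by 0.52 ± 0.07 over the diets (1.44-fold, limma adjusted p = 0.00114), by 0.65 ± 0.11 on control diet (adjusted p = 0.00439) and was at -0.40 ± 0.11 on ethanol diet, where it did not pass (adjusted p = 0.0855). Proc, the gene of protein C, had a change of 0.04 ± 0.05 with a 95% confidence interval from -0.07 to 0.16, which excludes a fall of the size seen for its cofactor.

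C9 is the component that polymerises into the wall of the membrane pore. C9 (Entrez 12279) in wild-type livers stood at 12.41, 12.29 and 12.56 on control diet and at 12.07, 12.03 and 12.03 on ethanol. In the null arrays it stood at 11.83, 11.72 and 11.97 on control diet and at 11.72, 11.79 and 11.84 on ethanol. The genotypes did not overlap over the 12 arrays, and the wild-type controls were the highest. C9 fell by 0.42 ± 0.07 over the diets (1.34-fold, limma adjusted p = 0.00239) and by 0.58 ± 0.09 on control diet (adjusted p = 0.0047). On ethanol diet the change was -0.26 ± 0.09 and did not pass (adjusted p = 0.196).

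C6 is the component through which the growing terminal complex takes up C7. C6 (Entrez 12274) in wild-type livers was at 11.62, 11.37 and 11.78 on control diet and at 11.14, 11.46 and 11.19 with ethanol. Null livers had 10.84, 11.10 and 11.13 on control diet and 10.05, 10.96 and 10.76 with ethanol. Again no null array reached a wild-type array, although null ethanol 1 lay well below the other null arrays. C6 fell by 0.62 ± 0.14 (1.54-fold, limma adjusted p = 0.0173), and by 0.49 without null ethanol 1 (adjusted p = 0.0168).

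Pros1, C9 and C6 were the 3 members, 8.82% of 34, whose 6 null arrays did not overlap the 6 wild-type arrays, where 3.58% of all genes tested did so. All 3 were lower, against 2.11% of all genes lower and 1.47% higher.

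**Figure D2:**
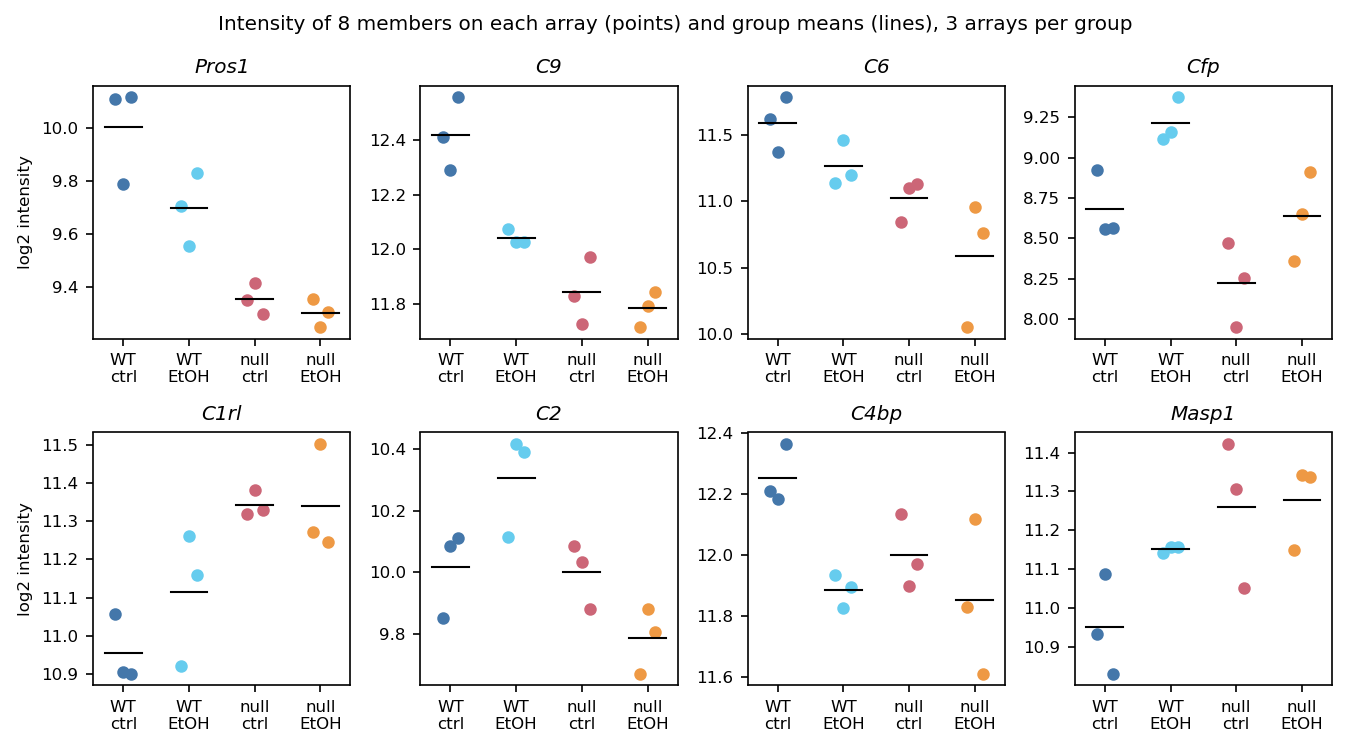
Log2 intensity (vertical axis, separate scale per gene) of 8 members on every array, with 3 points per group and a line at the group mean. For Pros1, C9 and C6 both null groups lie below both wild-type groups, C2 is highest in wild-type ethanol (means from 9.79 to 10.31), and Cfp is higher with ethanol and lower in null livers.

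The other subunits of the terminal complex gave smaller values. The 3 chains of C8, which open the membrane for C9, had genotype changes of -0.07 ± 0.08 for C8a, -0.25 ± 0.09 for C8b and 0.12 ± 0.06 for C8g, and Hc, the mouse gene of C5, of -0.10 ± 0.07. None of these 4 passed (limma adjusted p from 0.142 to 0.655). Of the 6 terminal members, 2 fell and 5 had a negative change, with a median of -0.18. On control diet the C8 chains differed in sign. C8g was higher in every null array (12.42 to 12.52) than in every wild-type array (12.14 to 12.24). C8a and C8b were lower in every null array, C8a narrowly (up to 11.76 against 11.77 and above). Of all genes tested, 24.7% did not overlap there, 14.6% higher and 10% lower. None of the 3 chains was called on control diet (limma adjusted p = 0.0714 for C8g, 0.36 for C8a and 0.33 for C8b). On ethanol diet the genotypes overlapped for all 3.

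Properdin steadies the C3 convertase of the alternative pathway, and unlike most members it is made mainly by myeloid cells. Cfp (Entrez 18636) was at 8.93, 8.56 and 8.56 in wild-type livers on control diet and at 9.11, 9.16 and 9.37 in those on ethanol. The null livers gave 8.47, 7.95 and 8.25 on control diet and 8.36, 8.65 and 8.91 with ethanol. Within each diet the null arrays lay below the wild-type arrays, and within each genotype the ethanol mean was the higher. Cfp fell in null livers by 0.52 ± 0.11 (1.43-fold, limma adjusted p = 0.0165). Its ethanol change was 0.47 ± 0.11 and did not pass (adjusted p = 0.199).

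Kupffer cells are the resident macrophages of the liver, and their markers moved with Cfp. Of 8 marker genes, all tested, 7 fell in null livers and 0 rose, with a median of -0.64, and Timd4 alone did not pass (adjusted p = 0.0537). The largest fall among them was Cd5l at -0.94 ± 0.12. The summed intensity of the 8 genes ran from 4015 to 6085 in the wild-type control arrays, from 5041 to 6421 in wild-type ethanol, from 2329 to 3367 in null control and from 3208 to 4481 in null ethanol. With ethanol all 8 had a positive change averaged over the genotypes (median 0.29), and none passed. In whole liver, fewer cells of a type and less RNA per cell cannot be told apart, and the part of the markers in the change of Cfp was not tested. Among monocyte and neutrophil markers, 5 of 8 were below the filter and 1 of the 3 tested, Lyz2, fell. The summed level of 8 hepatocyte markers lay between 76889 and 85999 over all groups, and in null ethanol, the lowest, between 76889 and 83034. Of these 8, Tdo2 fell over the diets by 0.33 ± 0.08 (adjusted p = 0.0283) and Ass1 rose on control diet by 0.55 ± 0.14 (adjusted p = 0.0453). Markers of other cells also moved with genotype: of 8 sinusoidal endothelial markers 2 (Pecam1 and Tek) fell and 7 were negative, with a median of -0.32, and 1 platelet marker of 5 (Ppbp) and 1 adipocyte marker of 4 (Fabp4) fell. Of 8 stellate cell and 3 cholangiocyte markers tested 0 were called. The part of these markers in the falls of Pros1, C9 and C6 was not tested. Factor B (Cfb), the hepatocyte-made partner in the same convertase, had a change of -0.04 ± 0.07 (adjusted p = 0.802).

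C1rl encodes a liver protease related to C1r. C1rl (Entrez 232371) in wild-type livers was at 11.06, 10.90 and 10.90 on control diet and at 10.92, 11.26 and 11.16 on ethanol. In null livers it was at 11.32, 11.38 and 11.33 on control diet and at 11.27, 11.50 and 11.25 on ethanol. The null arrays overlapped the wild-type arrays only through wild-type ethanol 2. C1rl rose by 0.31 ± 0.07 (1.24-fold, limma adjusted p = 0.026), and it missed the threshold without null control 2, null ethanol 2, wild-type control 3 or either of wild-type ethanol 1 and 3 (0.26 to 0.32, adjusted p from 0.0504 to 0.0657). C1ra, the C1 protease gene beside it, had 0.09 ± 0.07 (adjusted p = 0.537).

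C2 supplies the protease of the classical and lectin C3 convertase. C2 (Entrez 12263) in wild-type livers was at 9.85, 10.09 and 10.11 on control diet and at 10.12, 10.42 and 10.39 on ethanol. Null livers gave 10.09, 10.03 and 9.88 on control diet and 9.67, 9.88 and 9.81 on ethanol. The genotypes coincided on control diet (-0.02 between means) and separated on ethanol diet. On ethanol C2 fell in null livers by 0.52 ± 0.11 (1.44-fold, limma adjusted p = 0.03). It was the 1 member called on ethanol diet (2.94% of 34, against 1.79% of all genes, 1.33% lower and 0.456% higher). The call was lost without wild-type ethanol 2 or 3 or any 1 of the null ethanol arrays (-0.57 to -0.46, adjusted p from 0.058 to 0.143). Averaged over the diets C2 was at -0.27 ± 0.08 and did not pass (adjusted p = 0.0575). It did pass in 6 of 21 alternatives, with limma adjusted p from 0.0318 to 0.132 over the 21. C4b, whose product joins C2 in that convertase, was at 0.09 ± 0.09 over the diets.

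On control diet 2 members, Pros1 and C9, were called (5.88% of 34, against 5.1% of all genes, 1.89% lower and 3.21% higher). Of the 34, 16 had null arrays that did not overlap the wild-type arrays there (47.1%, against 24.7% of all genes), 12 lower (10% of all genes) and 4 higher (14.6%). Without wild-type control 2 the called members were 5 (C9, F12, F13b, F9 and Pros1), while the genes called in all went from 715 to 1304. Without null ethanol 3 the members were 4 (C1rl, C8g, C9 and Pros1) and the genes in all 894. On ethanol diet 9 did not overlap (26.5%, against 24.1% of all genes), 8 lower (14.4% of all genes) and 1 higher (9.74%).

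**Figure D3:**
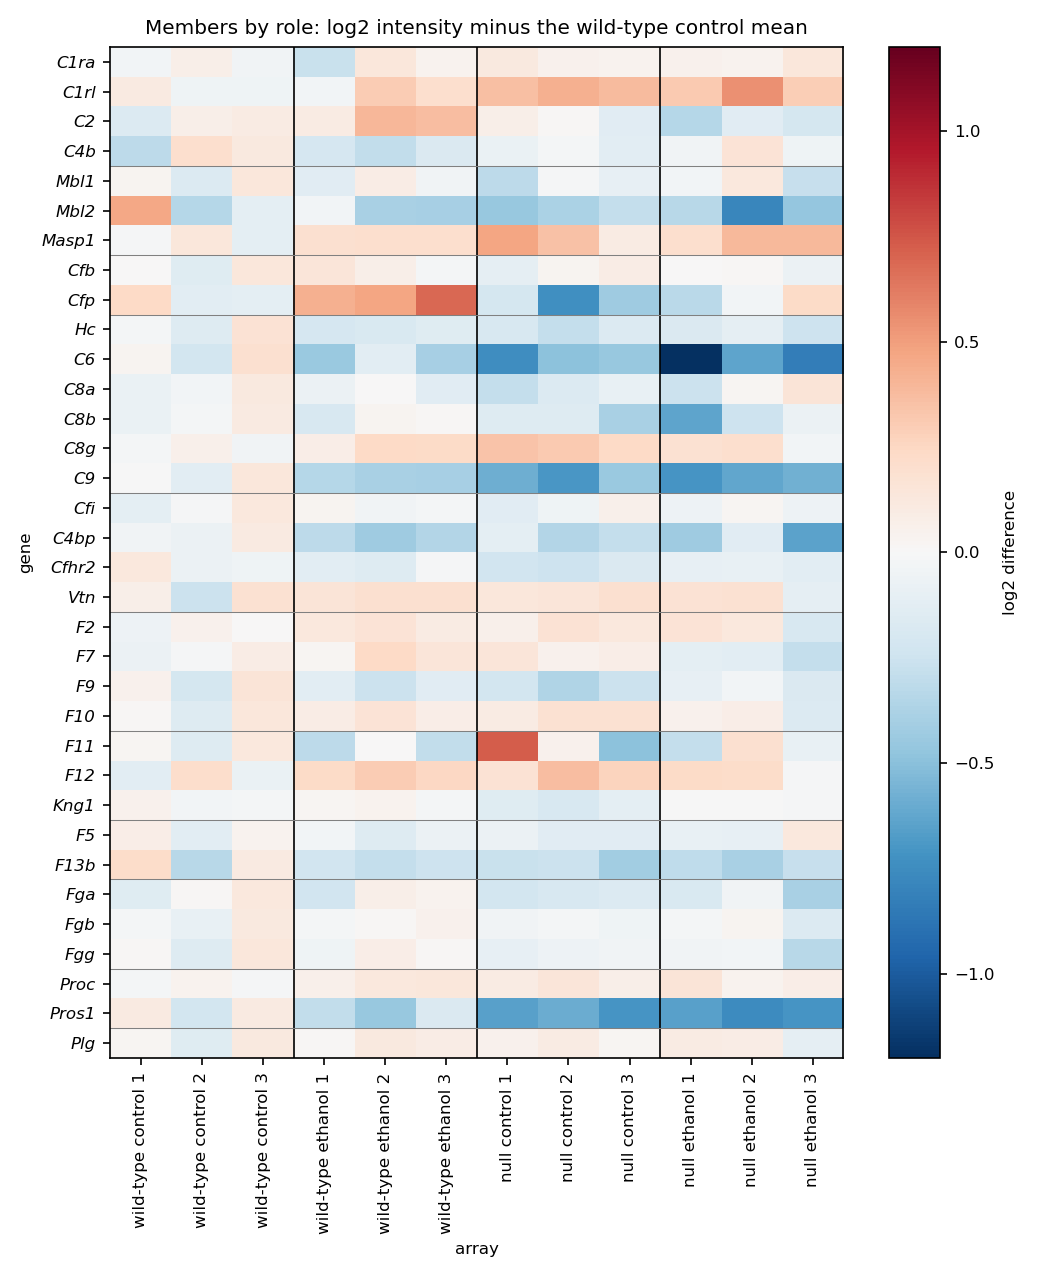
Log2 intensity of each measured member (rows, grouped by role) on each array (columns) minus that gene's wild-type control mean; red is higher and blue lower. Rows of C6, C9 and Pros1 are blue across all 6 null arrays, C1rl is red there, and the fibrinogen, F2 and Plg rows stay pale.

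The lectin route had no call. Mbl1 and Mbl2, the mannose-binding lectins, had genotype changes of -0.09 ± 0.09 and -0.31 ± 0.13, and Masp1, the gene of an associated protease, of 0.22 ± 0.08 (limma adjusted p = 0.112). Masp1 was at 10.93, 11.09 and 10.83 in wild-type control, 11.14, 11.16 and 11.16 in wild-type ethanol, 11.42, 11.31 and 11.05 in null control and 11.15, 11.34 and 11.34 in null ethanol. Its genotypes overlapped, and it passed only without null control 3 (0.27, adjusted p = 0.0454) among the fits that left out an array.

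The complement regulators had no call either. Cfi, the protease that cuts C3b and C4b, was at -0.03 ± 0.06 by genotype, Cfhr2, of the factor H family, at -0.11 ± 0.06, and Vtn, which holds the terminal complex off membranes, at 0.03 ± 0.08. C4bp, the cofactor for C4b cleavage that carries protein S in human plasma, was at -0.14 ± 0.09 by genotype and -0.26 ± 0.09 by ethanol. Its arrays were at 12.21, 12.18 and 12.36 in wild-type control, 11.93, 11.83 and 11.90 in wild-type ethanol, 12.13, 11.90 and 11.97 in null control and 11.83, 12.12 and 11.61 in null ethanol. The wild-type control arrays were the highest of the 12 and the other groups overlapped one another. The ethanol change did not pass (limma adjusted p = 0.288).

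The procoagulant proteases and contact factors had no call, and averaged over the diets their intervals included 0. F2, the gene of prothrombin, had a genotype change of 0.01 with a 95% confidence interval from -0.14 to 0.16. F7, which starts clotting with tissue factor, was at -0.11 (-0.25 to 0.03) and F9, the hemophilia B gene, at -0.11 (-0.26 to 0.05). In the contact system F12 was at 0.08 (-0.09 to 0.24) and Kng1, the kininogen gene, at -0.09 (-0.20 to 0.03), whereas F11 had the widest interval of all members (-0.24 to 0.47) and spanned 9.18 to 10.39 within the null control arrays. None of these 6 intervals reached a change of the size of Pros1 in either direction. The averages combined opposite signs on the diets for several of them. F7 was at 0.09 ± 0.09 on control diet and at -0.31 ± 0.09 on ethanol, and F9 was at -0.28 ± 0.10 and 0.07 ± 0.10. F10 was at 0.15 ± 0.10 on control diet and at -0.12 ± 0.10 on ethanol, and F12 was at 0.27 ± 0.11 and -0.12 ± 0.11. None of these 8 values passed (limma adjusted p from 0.105 to 0.792).

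Fibrinogen is secreted as a hexamer of 3 chains in equal amount. Their genotype changes were -0.18 ± 0.08 for Fga, -0.05 ± 0.06 for Fgb and -0.11 ± 0.07 for Fgg, all negative and none called (limma adjusted p from 0.222 to 0.676). F13b, the carrier of the fibrin cross-linking enzyme, was at -0.19 ± 0.09 (adjusted p = 0.218) and the cofactor gene F5 at -0.02 ± 0.06. Plg, the precursor of plasmin, was at 0.00427 with a 95% confidence interval from -0.14 to 0.15.

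No member passed the threshold for ethanol. In wild-type livers 0 of 34 were called (0.0927% of all genes were), and 6 had an unadjusted p under 0.05 (17.6%, against 14.5% of all genes). In null livers 0 were called (0.00713% of all genes) and 3 had such an unadjusted p (8.82%, against 12.2% of all genes). Averaged over the genotypes 0 were called (0.0143% of all genes), 5 had such a p (14.7%, against 12.1%), and the control and ethanol arrays overlapped for every member (0 of 34, against 0.556% of all genes, 0.0998% higher and 0.456% lower). The median ethanol change of the 34 was -0.02 in each genotype, with extremes of -0.38 and 0.53 in wild-type and -0.43 and 0.41 in null livers. Over all genes tested the median was -0.0051 in wild-type and -0.046 in null livers. In wild-type livers C9 was at -0.38 ± 0.09, Cfp at 0.53 ± 0.16, C4bp at -0.37 ± 0.12, Pros1 at -0.31 ± 0.11, C2 at 0.29 ± 0.11 and F12 at 0.26 ± 0.11, with limma adjusted p from 0.123 to 0.286. C9 and Pros1 thus had the same sign with ethanol as in null against wild-type livers, but both comparisons use the wild-type control arrays. Without wild-type control 2, C9, F13b and Pros1 passed in wild-type livers, while the genes called in all went from 13 to 810. Control and ethanol arrays did not overlap for 9 members in wild-type livers (26.5%, against 19.4% of all genes, 10.8% higher and 8.61% lower). Of these C2, Masp1, Cfp, C8g, F2, F12 and Proc were higher and C9 and C4bp lower with ethanol. In null livers 7 did not overlap (20.6%, against 18.6% of all genes, 5.59% higher and 13% lower), with Cfhr2, F9 and Kng1 higher and C2, C8g, F7 and F10 lower. C2 and C8g did not overlap in either genotype and ran in opposite directions, a pattern of 2.08% of all genes. In null livers the smallest p belonged to F7 at -0.27 ± 0.09 (adjusted p = 0.311), from 10.52 to 10.61 on control diet to 10.18 to 10.36 on ethanol.

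**Figure D4:**
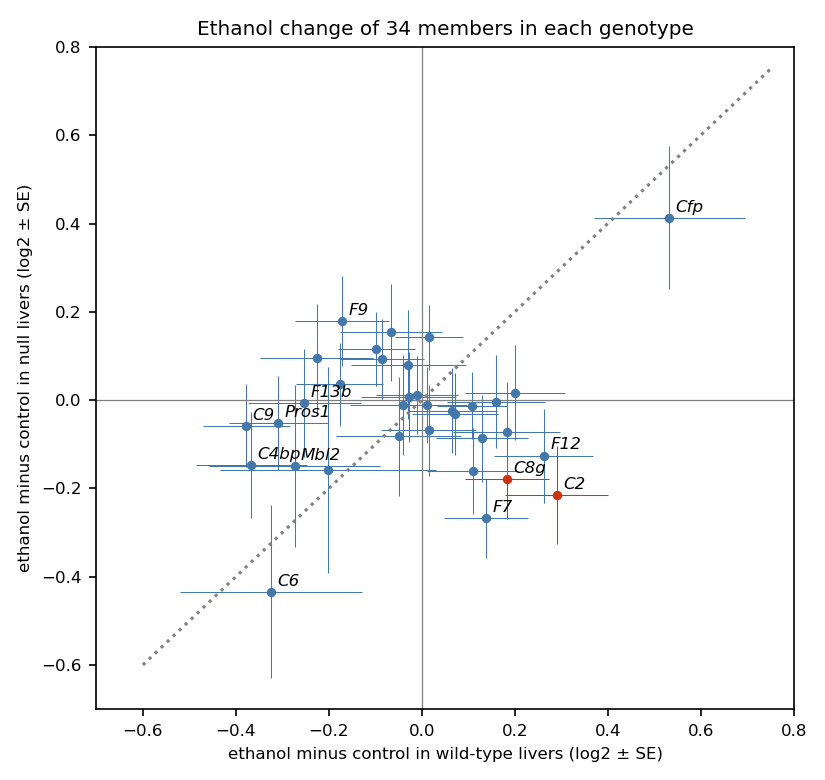
Ethanol change (log2 ± SE) of each of the 34 members in wild-type livers (horizontal) against null livers (vertical), 3 arrays per group, with a dotted line of equal change. Cfp is positive and C6 negative in both genotypes, while C2 and C8g (red) are positive in wild-type and negative in null livers.

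The interaction, the ethanol change in null minus that in wild-type livers, called 0 members (0.0143% of all genes), and 6 had an unadjusted p under 0.05 (17.6%, against 15% of all genes). Of these 6 the negative differences were -0.50 ± 0.16 for C2 (95% confidence interval -0.84 to -0.17, limma adjusted p = 0.206), -0.41 ± 0.13 for F7 (adjusted p = 0.208), -0.39 ± 0.15 for F12 (adjusted p = 0.269) and -0.36 ± 0.13 for C8g (adjusted p = 0.243). The positive ones were 0.35 ± 0.14 for F9 and 0.32 ± 0.13 for C9. C4b had a difference of 0.32 ± 0.17 with an unadjusted p above 0.05. For F9, ethanol arrays were all higher than control arrays in null livers (11.93 to 12.08 against 11.74 to 11.89), and in wild-type livers they overlapped (11.85 to 11.98 against 11.90 to 12.26). No member's ethanol change was thus shown to differ between the genotypes at this number of arrays.

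Positions were read from the RefSeq order of genes on GRCm38.p6. Ppard lies on chromosome 17, and so do 4 measured members, Plg on one side and C4b, Cfb and C2 on the other. Between Ppard and C4b lay 128 tested genes, 4 of them called by genotype over the diets, and between Ppard and Plg 189, with 22 called. Over all genes tested the share called was 7%. None of these 4 members was called over the diets, and C2 was the 1 member called on ethanol diet. Of the 20 nearest tested genes of C2, 3 were called over the diets (15%: Neu1, Snord52 and Hspa1b).

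C6 and C9 are close together on chromosome 15, a relation looked at after their values were seen. The 7 tested genes between them had genotype changes from -0.22 to 0.58 and 0 were called. Beyond C9, its direct neighbour Fyb, an adaptor of immune cells, fell by 0.80 ± 0.12 (limma adjusted p = 0.00188) and Lifr, the leukemia inhibitory factor receptor gene, by 0.53 ± 0.09 (adjusted p = 0.00394), while Ranbp3l, farther along, rose by 0.66 ± 0.18 (adjusted p = 0.0496). Of the 20 nearest tested genes of C9, 4 were called (20%, against 7% of all genes), with C6 among the 4, of C6 2 of 16 (C9 and Fyb), of C1rl 7 of 20, and of Pros1 and Cfp 0 of 20 each. The genes called near C1rl, which itself rose, included C3ar1, which fell, and the macrophage genes Clec4a1, Clec4a3, Clec4n and Cd163. Directions of the other called neighbours are not given here. C1ra, C1s1 and C1rb beside C1rl were not called.

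**Figure D5:**
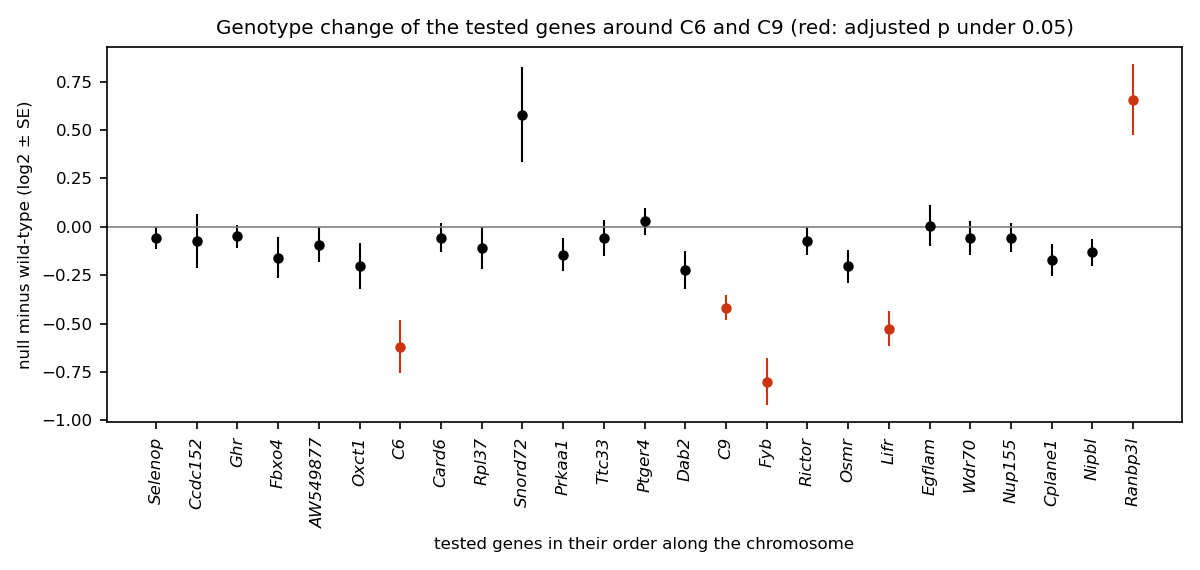
Genotype change (null minus wild-type, log2 ± SE) of the tested genes around C6 and C9 in their order along the chromosome, red where the limma adjusted p was under 0.05. C6 and C9 are low, the 7 genes between them are not called, and past C9 Fyb and Lifr are also low and Ranbp3l is high.

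Other genes of the same systems were read from lists of their own. Of 14 tested complement initiators and receptors, 7 fell in null livers and 0 rose (median -0.33). C1qa, C1qb and C1qc, the macrophage-made chains of C1q, fell by 0.38 ± 0.09, 0.52 ± 0.14 and 0.50 ± 0.12 (limma adjusted p from 0.0191 to 0.0452). The anaphylatoxin receptor genes C3ar1 and C5ar2 fell by 0.57 ± 0.11 and 0.68 ± 0.12, and Vsig4, the Kupffer cell receptor of C3b, by 0.83 ± 0.17. Colec11, the gene of a soluble lectin that works with the MASP proteases, fell over the diets (adjusted p = 3.11e-05), by 0.92 ± 0.13 on control diet and by 1.08 ± 0.13 on ethanol diet. Several of these are macrophage genes, and the Kupffer cell markers fell beside them, as given above for Cfp. Vsig4 is on both lists, so the lists are not separate observations for it.

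The other lists held few calls by genotype. Of 8 complement regulators, 12 coagulation partners and 12 anticoagulant and fibrinolysis genes none was called over the diets, with the smallest p in each at Cd55 (-0.32 ± 0.14), Fgl1 (-0.57 ± 0.19) and Tfpi (-0.30 ± 0.09, limma adjusted p = 0.0572). On control diet alone Fgl1, which encodes a fibrinogen-like liver protein, fell by 1.07 ± 0.27 (adjusted p = 0.0409), and on ethanol diet it was at -0.07 ± 0.27. Of 11 genes of the vitamin K cycle and clotting factor export, Furin, a protease that trims proproteins such as those of clotting factors, rose by 0.28 ± 0.06 (adjusted p = 0.017). Of 18 other plasma proteins of hepatocytes 0 were called, with changes from -0.14 to 0.12 and a median of 0.02. Of 13 acute phase genes 1, the serum amyloid gene Saa2, fell over the diets, with a change of -1.72 ± 0.42. On control diet 2 of the 13 fell, Saa2 with a change of -2.89 ± 0.59 (adjusted p = 0.0167) and Fgl1, which is on both lists. On ethanol diet 0 of the 13 were called and Saa2 was at -0.55 ± 0.59, and the difference between the diets for Saa2 did not pass (adjusted p = 0.247). Of 14 liver transcription factors 0 were called, with Cebpd at 0.46 ± 0.14 (adjusted p = 0.064) the 1 with the smallest p. Of the 14 initiators and receptors, 0 were called by ethanol averaged over the genotypes, with 4 at an unadjusted p under 0.05.

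The promoters of the members called by genotype over the diets, except Cfp, are shown because Pros1, C9 and C6 fell together and C1rl rose. Each run is the RefSeq strand of the gene on GRCm38.p6, 5′ to 3′, from 250 bases before to 50 after its start, all on the plus strand. Capitals mark matches, on either strand, to the letters AGGTCA (bound by nuclear receptors), its direct repeat with 1 base between (bound by PPAR with RXR, and counted under the single hexamer too), GTTAAT (HNF1), TTGCNNAA (C/EBP) and TTCNNNGAA (STAT).
Pros1, chr16:62854057-62854356: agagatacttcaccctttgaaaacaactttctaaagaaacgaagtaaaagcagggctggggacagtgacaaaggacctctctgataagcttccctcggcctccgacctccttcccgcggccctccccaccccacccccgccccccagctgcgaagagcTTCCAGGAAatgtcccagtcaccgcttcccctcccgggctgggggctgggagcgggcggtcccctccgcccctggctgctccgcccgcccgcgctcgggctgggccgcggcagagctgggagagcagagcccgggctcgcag
C9, chr15:6445096-6445395: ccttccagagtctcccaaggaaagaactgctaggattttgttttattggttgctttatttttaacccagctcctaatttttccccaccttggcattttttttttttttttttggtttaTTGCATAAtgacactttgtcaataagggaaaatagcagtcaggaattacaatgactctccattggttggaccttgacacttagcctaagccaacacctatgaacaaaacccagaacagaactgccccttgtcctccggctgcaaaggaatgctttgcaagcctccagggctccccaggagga
C6, chr15:4726960-4727259: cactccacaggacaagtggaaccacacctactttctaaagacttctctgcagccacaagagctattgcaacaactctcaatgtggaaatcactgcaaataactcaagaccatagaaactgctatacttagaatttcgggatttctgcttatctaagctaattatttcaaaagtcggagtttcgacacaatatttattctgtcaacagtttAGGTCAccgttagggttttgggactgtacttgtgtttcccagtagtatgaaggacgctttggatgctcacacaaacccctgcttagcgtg
C1rl, chr6:124492863-124493162: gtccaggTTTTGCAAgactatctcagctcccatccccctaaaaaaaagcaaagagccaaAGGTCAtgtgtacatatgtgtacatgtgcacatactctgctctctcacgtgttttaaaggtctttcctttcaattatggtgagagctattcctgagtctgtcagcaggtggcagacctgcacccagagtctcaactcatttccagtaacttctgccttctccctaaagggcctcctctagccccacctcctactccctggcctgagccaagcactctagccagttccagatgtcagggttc

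The window of Pros1 held the STAT letters from -92, that of C9 the C/EBP letters from -132, that of C6 AGGTCA from -40, and that of C1rl AGGTCA from -191 and the C/EBP letters on the minus strand from -243. Pros1, C9 and C6 thus shared none of these letters. Cfp, which also fell but is not shown, held AGGTCA, as C6 did, and GTTAAT. Among 32851 promoters of this length, 16.3% held AGGTCA, 0.0396% the direct repeat, 7.1% GTTAAT, 10.8% TTGCNNAA and 8.3% TTCNNNGAA. Of 31 listed genes with a promoter sequence, 12 held AGGTCA, 0 the direct repeat, 12 GTTAAT, 10 TTGCNNAA and 9 TTCNNNGAA. A match is a description of letters and says nothing of binding in these livers.

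Complement and clotting genes include close copies, such as C4b and C4a, Kng1 and Kng2, and C1ra and C1rb. Whether their probes also match the copy was not checked, so the values of these members are uncertain as to the copy measured.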

How the data were processed

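Liver total RNA of 12 samples was hybridised to Affymetrix whole-transcript arrays, 3 per group as the labels give them. The deposited values are 1 intensity per probe set and array, on a linear scale from 1.816 to 20156, and the authors normalised them with RMA, per the submitters' processing notes. No source used here names the software. log2 was taken here, and 23521 of the 41345 probe sets named 1 gene. A gene was tested if it lay above the 40th percentile of gene values on at least 3 arrays. limma 3.58.1 in R 4.3.3 fitted 1 mean per group (lmFit, contrasts.fit, eBayes) with 7 comparisons and Benjamini-Hochberg adjustment over 14031 genes. The median standard error was 0.116 for a pair of groups. The scripts were tested on simulated data.

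The members and lists were chosen with earlier results of these data known. Members called anywhere were described array by array, with C4bp and Masp1 added by smallest p up to 8. Other genes were named per role or list by smallest p; those named for the interaction, the C1q chains, Vsig4 and the chromosomal neighbours were chosen after their values were seen. Alternatives changed the filter, the probe set rule, the scaling, the log2 offset, the moderation, array weights, the groups fitted and the replicate block, and left out each array. Promoters are RefSeq sequences of GRCm38.p6.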

Additional observations from a re-analysis of the deposited data

Results flagged for a closer look

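C2 and C8g stood out because their ethanol change ran in opposite directions in the 2 genotypes, with no overlap between control and ethanol arrays in either. C2 was at 0.29 with ethanol in wild-type and at -0.21 in null livers, a difference of -0.505 (limma adjusted p = 0.206). C8g was at 0.18 in wild-type and at -0.18 in null livers, a difference of -0.362 (limma adjusted p = 0.243). The test of the difference passed for neither gene, and 292 of the 14031 genes tested (2.08%) showed the same pattern of arrays.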

How the results depend on the processing

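Pros1, C9, Cfp and C6 kept their genotype call in all 21 alternatives, with adjusted p up to 0.00449, 0.00868, 0.0488 and 0.0491 (limma). Averaged over the diets, called members numbered 5, with 8 under array weights and 4 to 6 when 1 array was left out. On control diet they numbered 2, with 4 under the filter at the 60th percentile, 4 with trend and robust moderation, 9 under array weights and 2 to 5 when 1 array was left out. On ethanol diet the count was 1, with 0 without a filter, 0 after quantile normalisation, 0 with only the groups compared, 4 under array weights and 0 to 2 when 1 array was left out. For ethanol in wild-type livers it was 0, with 3 under array weights and 0 to 3 when 1 array was left out. Ethanol in null livers, ethanol averaged and the interaction stayed at 0 in every alternative run. C1rl also missed the threshold without a filter (adjusted p = 0.054). The ethanol average of C2 turned from 0.04 to -0.0035 without wild-type control 1 and was up to 0.0855 without another array. All genes called moved too: under array weights from 13 to 832 for ethanol in wild-type livers, from 715 to 1631 on control diet, from 251 to 829 on ethanol diet and from 982 to 1863 over the diets, and without wild-type control 2 from 13 to 810 for ethanol in wild-type livers. The cause of these shifts was not tested. Deviations of 18 pairs of same-numbered arrays correlated from -0.146 to 0.191, 2 of them over 0.1. Differently numbered arrays were not compared in this way, so whether the numbers mark a pairing was not settled. With the replicate block the called members were 5 over the diets, 2 on control diet, 1 on ethanol diet and 0 in each of the other 4 comparisons. With 3 arrays per group, changes well under the intervals given cannot be seen.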
